A study of Mus musculus with 2 samples.

Results

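The genes described here are 8 receptors and enzymes through which microglia, the brain's resident macrophages, read purines, pyrimidines and a lipid outside the cell. They were taken by symbol from the feature table, as P2ry12, P2ry13, P2ry6, Gpr34, P2rx4, P2rx7, Adora3 and Entpd1, and all 8 were found among 31053 features. The study sorted microglia by flow cytometry and profiled them in droplets, as 2 single-cell RNA libraries, to set adult wild-type (WT) cells beside cells lacking the transcription factor IRF8. Each library was made from a pool of 3 female C57BL/6 mice aged 3 months with no treatment, and the titles give the groups as WT and IRF8KO. For the latter, the field for genotype also says WT and no allele is named, so it is called the library labelled IRF8KO. With 1 library per group there is no replicate: no test of genotype was possible, and every interval is a 95% interval that covers counting error only.

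Damaged or active cells release ATP, which is broken down stepwise outside the cell to ADP, AMP and adenosine. Microglia sense each form with a different receptor: P2X channels open on ATP, P2Y receptors signal through G proteins on ADP or UDP, and P1 receptors respond to adenosine. Ectonucleotidases such as CD39, the product of Entpd1, carry out the breakdown and so set which receptor is engaged. In the healthy brain the ADP receptor P2Y12 is a defining microglial gene and steers the processes of these cells towards sites of injury.

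Cells with at least 1000 UMIs (molecular tags that count each captured transcript), 500 or more genes and no more than 10% of UMIs from mitochondrial genes were analysed, leaving out those with 2% or more of UMIs in 6 neutrophil genes. This gave 3304 of 3504 WT barcodes with 18543061 UMIs and 5007 of 5303 barcodes with 18980263 UMIs in IRF8KO-labelled cells. The median depth was 3204.5 and 2933 UMIs per cell, with 1682 and 1379 genes. Mitochondrial genes took 2.17% of UMIs in WT and 3.93% in IRF8KO-labelled cells, and ribosomal protein genes 7.0% and 14.2%. The neutrophil limit removed 98 cells, all from the library labelled IRF8KO, and 5 barcodes occurred in both libraries. Irf8 itself had a level of 794 CPM (UMIs of a gene per 1000000 UMIs of the library) in WT cells and 669 CPM in those labelled IRF8KO (log2 ratio -0.25), and UMIs counted outside a deleted part would not check a knockout. The 13 microglia markers summed to 86860 CPM in WT and 40879 CPM in IRF8KO-labelled cells. Of these, 6 were at least 2-fold lower, with Sall1 at 511 and 2.85 CPM, Adgrg1 at 333 and 14.2 CPM and Aif1 at 655 and 76.1 CPM, while 7, such as Fcrls (1792 and 1891 CPM) and Olfml3 (1206 and 1268 CPM), were within 2-fold. The 11 border macrophage markers summed to 265 and 3543 CPM, where 7 passed 10 CPM and all 7 were at least 2-fold higher, while the defining markers Lyve1 and Folr2 were scarce, Lyve1 with 0 and 2 UMIs and Folr2 with 32 and 4. The part of these markers and of RNA quality in the results was not tested.

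The promoters of 4 genes are shown because the results turn on them: the ADP receptor pair P2ry12 and P2ry13, the adenosine receptor Adora3, which was lowered most, and the ATP channel P2rx4, which was higher. In GRCm38 (mm10), the build in the submitters' processing notes, P2ry12 lies at chr3:59216272-59262871 and P2ry13 at chr3:59207892-59210882, both on the minus strand within Med12l, which is on the plus strand and shares 9 exon bases with P2ry12. Adora3 lies at chr3:105870858-105908926 and P2rx4 at chr5:122707544-122729738, next to P2rx7 at chr5:122643911-122691432, all on the plus strand. P2ry6 lies at chr7:100937630-100974649, Gpr34 at chrX:13632089-13640858 inside Cask, and Entpd1 at chr19:40612366-40741602. The sequences are RefSeq promoter windows on GRCm38.p6, from 250 bases before to 50 after a transcription start, written 5′ to 3′ on the gene's strand. Such windows were found for 6 of the 8 genes, and P2ry6 and Gpr34 were not matched. Capitals mark matches, on either strand, to the ETS core GAGGAA, which factors such as PU.1 bind, or to the AP-1 site TGANTCA.
P2ry12, chr3:59262936-59263235, minus strand: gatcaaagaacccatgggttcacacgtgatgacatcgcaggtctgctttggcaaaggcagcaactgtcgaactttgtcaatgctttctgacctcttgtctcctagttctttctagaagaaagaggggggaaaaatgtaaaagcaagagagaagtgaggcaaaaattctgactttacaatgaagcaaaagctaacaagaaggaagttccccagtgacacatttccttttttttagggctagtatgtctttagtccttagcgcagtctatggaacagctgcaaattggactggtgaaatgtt
P2ry13, chr3:59210833-59211132, minus strand: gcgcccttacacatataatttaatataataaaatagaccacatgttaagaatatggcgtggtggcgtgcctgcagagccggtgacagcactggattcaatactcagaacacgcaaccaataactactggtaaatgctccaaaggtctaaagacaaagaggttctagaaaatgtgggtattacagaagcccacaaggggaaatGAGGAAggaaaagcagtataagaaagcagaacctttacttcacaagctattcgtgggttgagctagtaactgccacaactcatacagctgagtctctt
Adora3, chr3:105904171-105904470, plus strand: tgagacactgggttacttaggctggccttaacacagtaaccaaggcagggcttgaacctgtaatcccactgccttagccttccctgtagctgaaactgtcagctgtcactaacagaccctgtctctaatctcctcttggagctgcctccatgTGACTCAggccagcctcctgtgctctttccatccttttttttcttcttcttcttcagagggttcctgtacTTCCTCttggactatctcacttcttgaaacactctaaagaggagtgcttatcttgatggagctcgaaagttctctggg
P2rx4, chr5:122707294-122707593, plus strand: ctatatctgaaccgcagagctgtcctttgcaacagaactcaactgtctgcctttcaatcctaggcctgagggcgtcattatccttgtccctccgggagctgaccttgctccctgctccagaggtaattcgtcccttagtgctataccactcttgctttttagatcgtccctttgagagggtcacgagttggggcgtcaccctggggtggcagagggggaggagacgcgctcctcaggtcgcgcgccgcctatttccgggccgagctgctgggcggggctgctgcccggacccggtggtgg
GAGGAA was present in windows of 4 of the 6 genes (P2ry13, P2rx7, Adora3 and Entpd1) and in 28.3% of all 32851 promoter windows. The AP-1 site was present in windows of P2rx7 and Adora3 and in 7.81% of all. The shorter ETS core GGAA was not searched for on its own. Read on either strand, it occurs unmarked in the P2ry12 and P2rx4 windows. The 6 genes had 8 windows, so these counts per gene cannot be set directly against shares per window. The composite motifs at which IRF8 pairs with an ETS factor, GGAA then GAAA or GAAA then GGAA with 2 free bases between, and the interferon-stimulated element, GAAA then GAAA with the same gap, had no match on either strand in any window of the 6 genes, against 2.72%, 2.8% and 3.44% of all windows. A match is a description and not a site, and the absence of a match says only that these letters are not in this window.

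The 8 genes did not shift together in the library labelled IRF8KO. Adora3 was nearly lost, P2ry12, P2ry13 and Gpr34 were several-fold lower, Entpd1 and P2ry6 were lower to a smaller degree, P2rx7 was level and P2rx4 was higher. In all, 4 of 8 genes were at least 2-fold lower and 1 was at least 2-fold higher, while of the 8859 genes that reached 10 CPM in either library 9.28% were at least 2-fold lower and 5.61% at least 2-fold higher (6.05% and 7.65% under TMM scaling, 7.09% and 6.8% when mitochondrial and ribosomal protein genes were left out of the totals). The median log2 ratio was -1.21 over the 8 genes and -0.28 over all genes. Summed, the 8 genes took 0.792% of all UMIs in WT and 0.263% in IRF8KO-labelled cells. TMM scaling, a scaling less moved by a few abundant genes, shifted the median of all genes by 0.26 on the log2 scale, and Apoe alone went from 0.0478% to 8.83% of UMIs, so some ratios are set against that median too.

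**Figure D1:**
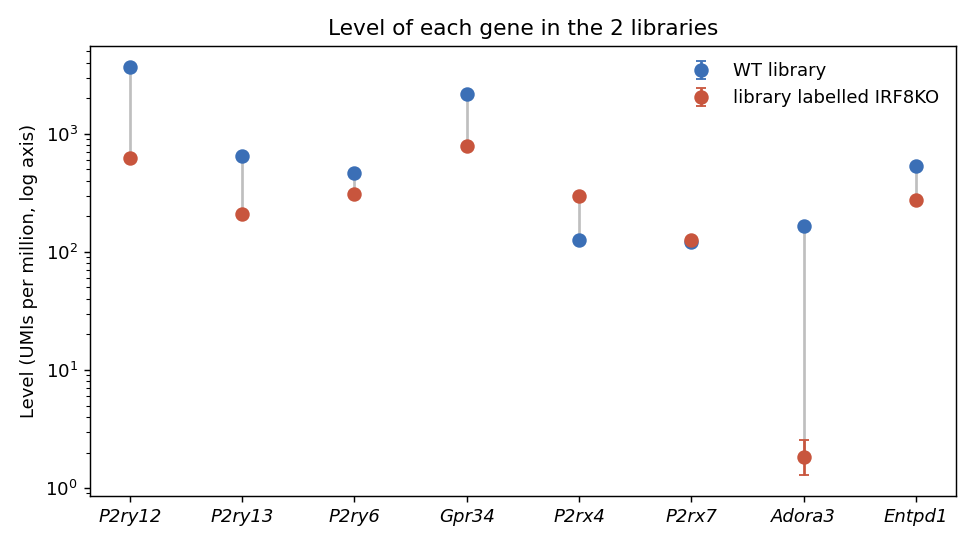
Level of each gene in CPM (log axis) in WT (blue) and in the library labelled IRF8KO (red), with exact Poisson intervals that are mostly smaller than the points. P2rx4 is the gene with the red point well above the blue, at 298 against 125 CPM, and Adora3 shows the widest gap, 164 against 1.84 CPM.

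The ADP receptors were both lower. P2ry12, the Gi-coupled ADP receptor that is also the target of antiplatelet drugs, had 68634 UMIs in WT, or 3701 CPM (3674 to 3729). In the library labelled IRF8KO it had 11859 UMIs, or 625 CPM (614 to 636). The intervals are far apart, and the level was 5.92-fold lower, a log2 ratio of -2.57 (-2.59 to -2.54) that lay at percentile 1.92 of all genes. P2ry13, a Gi-coupled ADP receptor encoded beside it, was at 644 CPM in WT cells and 211 CPM in IRF8KO-labelled cells, 3.06-fold lower, a log2 ratio of -1.61 (-1.66 to -1.56). P2ry12 made up 46.7% of the UMIs of the 8 genes in WT and 23.8% in IRF8KO-labelled cells.

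The UDP receptor was less reduced. P2ry6, which responds to UDP and is linked to phagocytosis by microglia, stood at 467 CPM (457 to 477) in WT and 308 CPM (300.4 to 316) in IRF8KO-labelled cells. Its log2 ratio of -0.60 (-0.65 to -0.55) was -0.32 relative to the median of all genes, and lay at percentile 22.0 of all genes.

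Gpr34 is a receptor of the P2Y12-like family that responds to lysophosphatidylserine and not to nucleotides. WT cells held 40105 UMIs of it, or 2163 CPM (2142 to 2184), and IRF8KO-labelled cells 14861, or 783 CPM (770.4 to 796). This was 2.76-fold lower, a log2 ratio of -1.47 (-1.49 to -1.44), and its share of the UMIs of the 8 genes was 27.3% in WT and 29.8% in IRF8KO-labelled cells.

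The ATP-gated channels went apart. P2rx4, a channel with high affinity for ATP that sits largely in lysosomes, stood at 125 CPM (120.4 to 131) in WT and 298 CPM (290 to 306) in IRF8KO-labelled cells. It was 2.37-fold higher, a log2 ratio of 1.25 (1.18 to 1.32) at percentile 95.8, and the only 1 of the 8 that was at least 2-fold higher. P2rx7, the channel that opens at high ATP and triggers the NLRP3 inflammasome, was level, at 121 CPM among WT cells and 125 CPM among IRF8KO-labelled cells. Its log2 ratio of 0.05 (-0.03 to 0.14) includes 0, and relative to the median of all genes it was 0.33. The UMI counts of the pair were 2326 and 2240 in WT and 5650 and 2380 in IRF8KO-labelled cells.

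The adenosine receptor Adora3 showed the widest difference. It encodes the Gi-coupled A3 receptor and had 3046 UMIs in WT, or 164 CPM (158 to 170.2). In the library labelled IRF8KO it had 35 UMIs, or 1.84 CPM (1.28 to 2.56), which is 89.1-fold lower, a log2 ratio of -6.48 (-7.00 to -6.00) at percentile 0.327. These 35 UMIs were spread over 33 cells, 31 with 1 UMI and 2 with 2. In the annotation 779 exon bases of Adora3 are shared with Tmigd3 on the same strand, and 0 of them lie in the last Adora3 exon (chr3:105907289-105908926). How reads in shared bases were counted was not tested. Tmigd3 itself had 12 and 17 UMIs. All 5 mast cell markers, for a cell type rich in this receptor, had 0 UMIs in both libraries.

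Entpd1 encodes CD39, the main microglial enzyme that turns extracellular ATP and ADP into AMP. It stood at 536 CPM (526 to 547) in WT and 275 CPM (268 to 283) in IRF8KO-labelled cells. The level was 1.95-fold lower, a log2 ratio of -0.96 (-1.01 to -0.91), just short of the 2-fold limit, and with the neutrophil-rich cells included it passed that limit at -1.01.

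**Figure D2:**
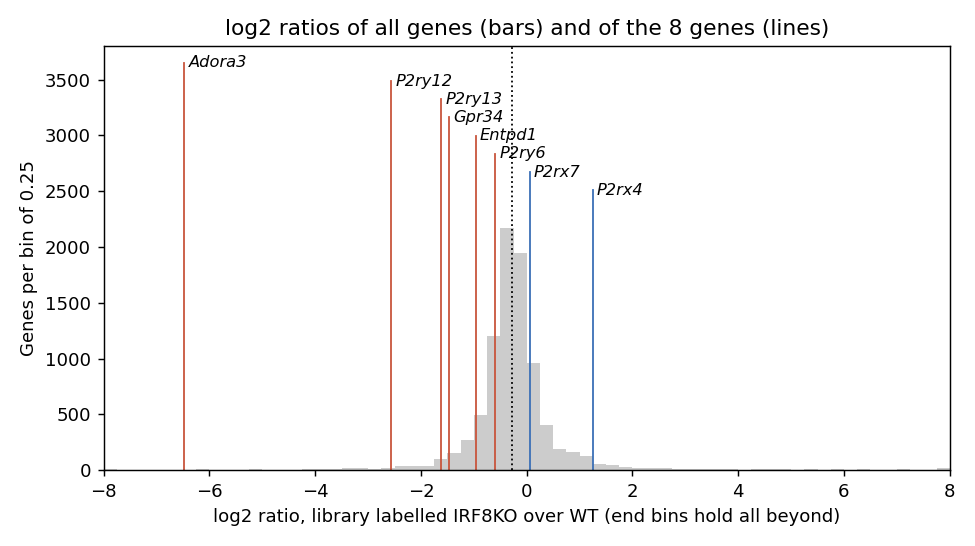
Number of genes per bin of log2 ratio, library labelled IRF8KO over WT, for the 8859 genes with at least 10 CPM (grey bars), with the 8 genes as lines (red below 0, blue above 0) and the median of all genes dotted at -0.28. Adora3 at -6.48 stands far to the left of the bulk, and P2rx4 at 1.25 to its right.

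The other purine pathway genes were read from 9 lists. Of 64 genes on them, 33 had at least 10 CPM in a library, of which 5 were at least 2-fold lower and 2 at least 2-fold higher, against 9.28% and 5.61% of all genes. The median log2 ratio was -0.37, and -0.28 over all genes. Few other receptors were detected: among 14 further P2Y, P2X and P1 receptors only P2ry10b passed 10 CPM, at 42.1 and 29.2 CPM. Adenosine handling was lower for the nucleoside transporter Slc29a3 (492 against 139 CPM, log2 ratio -1.83) and the phosphorylase Pnp (586 against 236 CPM, log2 ratio -1.31), while the kinase Adk stood at 11.4 and 19.5 CPM (log2 ratio 0.77). In receptor signalling, Kcnk13, the potassium channel THIK-1 that P2Y12 opens, was at 85.3 CPM in WT cells and 38.0 CPM in IRF8KO-labelled cells (log2 ratio -1.16). Plcb2, a phospholipase C, stood at -1.02 and the G protein subunit Gna13 at -0.79, so 2 of 12 signalling genes were at least 2-fold lower and 10 were not.

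Around P2rx7, the inflammasome genes differed in direction. The adaptor Pycard was at 462 and 158 CPM (log2 ratio -1.55), and the NLRP3 partner Nek7 stood at -0.89. Il1b, the cytokine the inflammasome matures, had 74 UMIs (3.99 CPM) among WT cells and 442 among IRF8KO-labelled cells (log2 ratio 2.54, interval 2.19 to 2.92). Nlrp3 itself stood at 71.1 and 73.1 CPM. Of the nucleotide release genes none of 4 with 10 CPM differed 2-fold, and Lrrc8a (-0.83), Panx1 (0.51) and Calhm2 (-0.21) differed most.

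Of 15 further genes listed as ectonucleotidases and related enzymes, not all of which act outside the cell, 5 passed 10 CPM. Cd38, an enzyme that consumes NAD, went from 0 UMIs to 290, at least 94.4-fold higher at a floor of 3 counts over the library. Enpp1, which splits ATP to AMP, stood at 7.93 and 12.6 CPM (log2 ratio 0.67), and Entpd7 at 30.3 and 19.8 CPM (-0.61). Nt5e, which encodes CD73 and turns AMP into adenosine, was scarce in both libraries, with 2 and 59 UMIs (log2 ratio 4.85, interval 2.93 to 7.93).

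Neighbours in the genome did not all differ in the same direction. In the chromosome 3 cluster, P2ry12 and P2ry13 were lower, as was the host gene Med12l (55.2 against 20.5 CPM, log2 ratio -1.43). The receptor genes on the far side of P2ry13 went the other way at low level: P2ry14, a UDP-glucose receptor at chr3:59113855-59153618, had 3 UMIs among WT cells and 63 among IRF8KO-labelled cells (log2 ratio 4.36, interval 2.75 to 6.67). Gpr171 at chr3:59096448-59101821 had 0 and 186 UMIs, at least 60.6-fold higher at the same floor. On chromosome 5, P2rx4 and the kinase gene Camkk2 on its other side were both higher, Camkk2 from 84.7 to 161 CPM (log2 ratio 0.92), and P2rx7 upstream was level. Cask, which hosts Gpr34 on the opposite strand, was lower at a log2 ratio of -1.15, and Igsf10 beyond P2ry12 had 81 and 25 UMIs. P2ry2, next to P2ry6, had 5 and 25 UMIs.

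Single cells showed the same split at equal depth. Each cell with at least 2000 UMIs was thinned to 2000, which kept 3019 WT and 4509 IRF8KO-labelled cells and left out 285 and 498. A P2ry12 UMI was found in 99.3% of WT cells (98.9 to 99.6) and in 64.6% of IRF8KO-labelled cells (63.1 to 66.0), against 99.5% and 77.7% without thinning. The WT median was 7 P2ry12 UMIs per cell (quartiles 5 and 9) and the other 1 (quartiles 0 and 2). At least 5 UMIs were found in 77.7% of WT cells and 2.99% of IRF8KO-labelled cells, so the distribution as a whole sat lower. Gpr34 had a UMI in 97.2% of WT cells and 72.2% of the other, P2ry13 in 70.4% and 32.4%, Entpd1 in 64.0% and 40.5%, and P2ry6 in 57.8% and 44.3%. Without thinning these shares were 98.6% and 83.8% for Gpr34, 84.8% and 47.9% for P2ry13, 80.5% and 55.6% for Entpd1, and 76.7% and 60.0% for P2ry6.

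P2rx4 was found in more cells of the library labelled IRF8KO, 41.0% against 20.9% in WT (57.2% and 38.0% without thinning). P2rx7 was found in 22.7% of IRF8KO-labelled cells and 19.7% of WT cells. Without thinning its direction was reversed, at 33.7% of IRF8KO-labelled cells and 37.4% of WT cells. Adora3 had a UMI in 26.7% of WT cells and 0.377% of IRF8KO-labelled cells (45.4% and 0.659% without thinning). The 98 neutrophil-rich cells, a cell type that should lack P2ry12, had a median of 7057.5 UMIs and served as a background. After thinning to the same depth, 5.15% of 97 such cells had a P2ry12 UMI (1.69 to 11.6), 7.22% a Gpr34 UMI and 7.22% an Entpd1 UMI, all far below the shares in the analysed cells. Of their 88 P2ry12 UMIs, 75 lay in 3 cells, so they were not evenly spread. Adora3 had a UMI in 0 of 97, which allows a share of up to 3.09% at 3 counts of the total (3.73% by the exact interval), so its share in the library labelled IRF8KO cannot be told from background.

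Added over the 8 genes, the median cell held 16 UMIs in WT and 5 in IRF8KO-labelled cells, and the median number of the 8 genes with a UMI was 5 and 3. Of IRF8KO-labelled cells, 79.6% (78.4 to 80.7) lay below the WT 5th percentile of 8 UMIs, where 4.64% of WT cells lay. Only 0.266% lay above the WT median. Without P2ry12 in the sum, 28.1% lay below the WT 5th percentile, then 3 UMIs, where 2.48% of WT cells lay. With whole-number counts the 2 cuts thus leave unlike shares of WT cells below them.

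**Figure D3:**
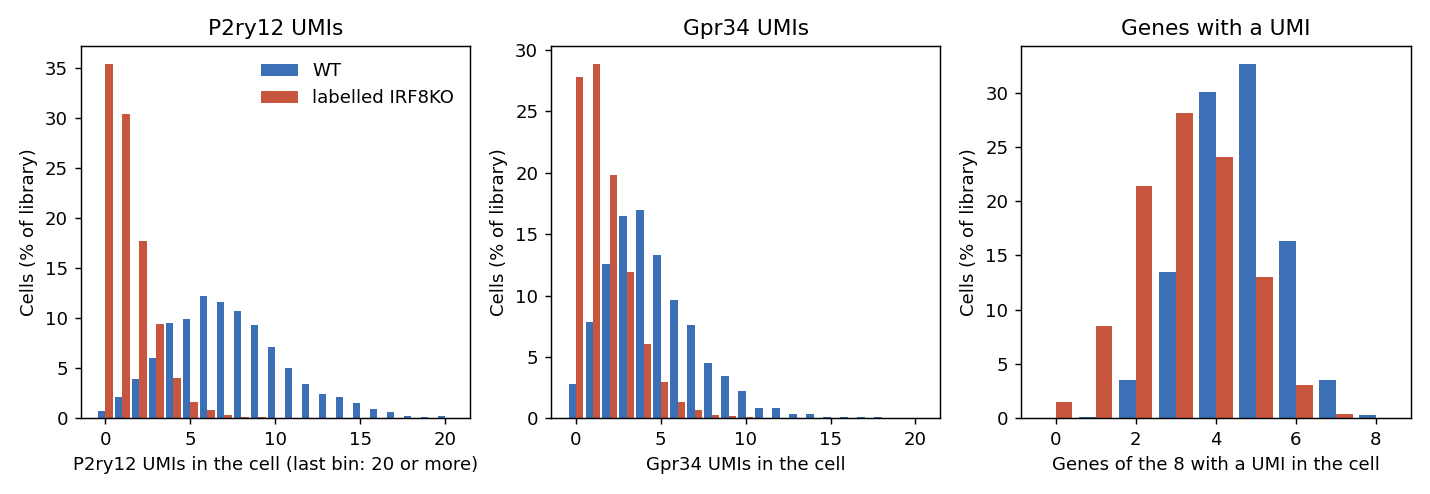
Cells in percent of each library by number of P2ry12 UMIs, Gpr34 UMIs and genes of the 8 with a UMI, after thinning every cell to 2000 UMIs (WT blue, 3019 cells; labelled IRF8KO red, 4509 cells). P2ry12 is at 0 in 35.4% of IRF8KO-labelled cells and 0.696% of WT cells, and the median number of genes with a UMI is 3 and 5.

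Within a library the genes were at most weakly related from cell to cell. Over the 28 pairs, Spearman's rho in thinned cells ran from -0.04 to 0.16 in WT (median 0.01). In the library labelled IRF8KO it ran from -0.01 to 0.14 (median 0.01). These values come from low counts in cells of equal depth and are a description. The highest pair was P2ry12 with P2ry13 in WT (0.16) and P2ry12 with Gpr34 in the other (0.14). At 4000 UMIs per cell, which left 1084 and 1156 cells, the same pairs gave 0.21 and 0.21. Against the summed UMIs of 13 microglia markers, the rho of P2ry12 was 0.11 among WT cells and 0.30 among IRF8KO-labelled cells, and that of Gpr34 0.04 and 0.21, while P2rx4 and P2rx7 lay between -0.05 and 0.01 in both.

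To see how the genes varied among cell states, cells were clustered on variable genes with the 8 genes left out, and clusters were described by the genes that lead them within their library. Clusters with at least 50 cells of a library are described. No such cluster had 3 markers of a cell type among its 10 leading genes, so none was named. Clusters 0, 1 and 2 held 2218, 994 and 76 WT cells, and clusters 4, 5 and 6 held 2624, 2032 and 293 IRF8KO-labelled cells. Between the large WT clusters 0 and 1, the intervals overlapped for P2ry12 (3717 and 3683 CPM), P2ry13, P2rx4, Adora3 and Entpd1. They were apart for Gpr34 (2297 and 2077 CPM), P2ry6 (434 and 482 CPM) and P2rx7 (110.1 and 127 CPM). Cluster 1 was also much deeper than cluster 0, with a median of 7163 UMIs per cell against 2836.5. The part of depth in these differences was not tested. Cluster 2, of shallow cells with a median of 1281.5 UMIs, had P2ry12 at 5851 CPM, and its intervals lay above both large clusters for P2ry12, P2ry13, P2ry6, Gpr34, P2rx4 and Entpd1. For P2rx7 (17 UMIs) and Adora3 (27 UMIs) they overlapped.

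Among the clusters of the library labelled IRF8KO, P2ry12, Gpr34 and P2ry13 differed between the 2 large ones, and the other 5 genes did not beyond their counting intervals. Cluster 5, led by Cck, Crybb1 and Slc1a3, had P2ry12 at 915 CPM, against 502 CPM in cluster 4, led by Cxcl2, Thbs1 and Runx3, and 622 CPM in cluster 6, led by the interferon-induced genes Cxcl9, Cxcl10 and Rsad2. The step from cluster 4 to cluster 5 was 1.82-fold for P2ry12, 1.49-fold for Gpr34 (692 to 1031 CPM) and 1.30-fold for P2ry13 (194 to 252 CPM). For P2ry6, P2rx4, P2rx7, Adora3 and Entpd1 the log2 ratio between these clusters lay between -0.06 and 0.16, and each interval includes 0. The border macrophage gene Ms4a7 had the opposite order, at 821 CPM in cluster 4 and 266 CPM in cluster 5. In the small cluster 6, P2rx4 was higher than in cluster 4 (347 against 300 CPM) and P2ry6 (251 against 310.5 CPM) and Entpd1 (240 against 283 CPM) were lower. Cluster 5 was also the shallower of the 2 large clusters, with a median of 2505 UMIs per cell against 3384, and the part of depth in these differences was not tested. Apoe was alike in clusters 4 and 5, at 89767 and 87390 CPM.

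Even the highest cluster of the library labelled IRF8KO stayed below the lowest WT cluster for P2ry12 (915 against 3683 CPM), Gpr34 (1031 against 2077 CPM), P2ry13 (252 against 640 CPM), P2ry6 (310.5 against 434 CPM), Entpd1 (283 against 528 CPM) and Adora3 (1.87 against 158 CPM). For P2rx4 the order was the reverse, with 291 CPM in the lowest IRF8KO-labelled cluster and 236 CPM in the highest WT cluster, though the latter is from 25 UMIs and its interval reaches 348. P2rx7 overlapped, at 121 to 129 CPM and 110 to 160 CPM.

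**Figure D4:**
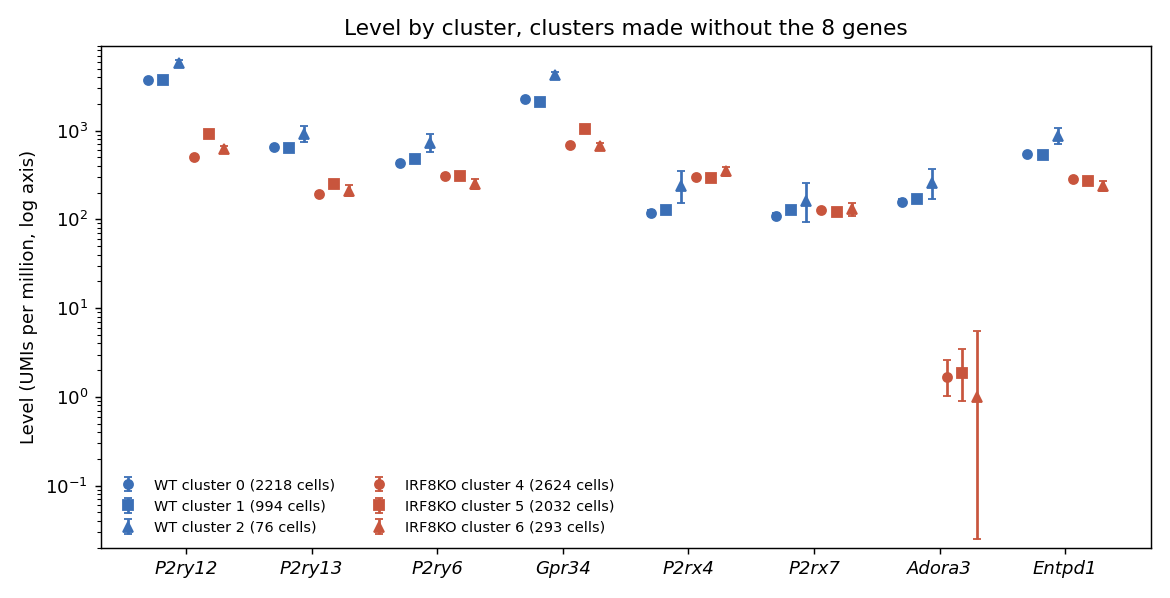
Level of each gene in CPM (log axis) in the 6 clusters with at least 50 cells, 3 of WT cells (blue) and 3 of IRF8KO-labelled cells (red), with exact Poisson intervals. Blue and red symbols separate for 7 genes and overlap for P2rx7, and cluster 5 (red square) is the highest red symbol for P2ry12 (915 CPM), Gpr34 (1031 CPM) and P2ry13 (252 CPM).

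A finer clustering set apart cells led by the chemokine gene Ccl4 and the early response gene Egr3 in both libraries, 71 WT cells and 58 IRF8KO-labelled cells. In WT these cells had P2ry12 at 1830 CPM against 3736 CPM in the remaining WT cells, a log2 ratio of -1.03 (-1.15 to -0.91). In the library labelled IRF8KO they had 319 CPM against 628 CPM, a log2 ratio of -0.98 (-1.35 to -0.62), so the relative step was of like size from a lower start. P2ry13 was lower in both as well, at -0.87 (-1.14 to -0.61) and -1.16 (-1.89 to -0.52). Adora3 was lower in WT at -1.04 (-1.64 to -0.49) and had 0 UMIs in the 58 cells. Gpr34 did not follow P2ry12, with -0.22 (-0.34 to -0.11) in WT and 0.24 (0.02 to 0.45) in IRF8KO-labelled cells. For P2ry6 and P2rx4 all intervals include 0, P2rx7 was at -0.34 (-0.89 to 0.16) and -0.75 (-1.59 to -0.03, from 15 UMIs), and for Entpd1 the value was -0.06 (-0.29 to 0.16) in WT and -0.89 (-1.45 to -0.37), from 30 UMIs, in the other.

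**Figure D5:**
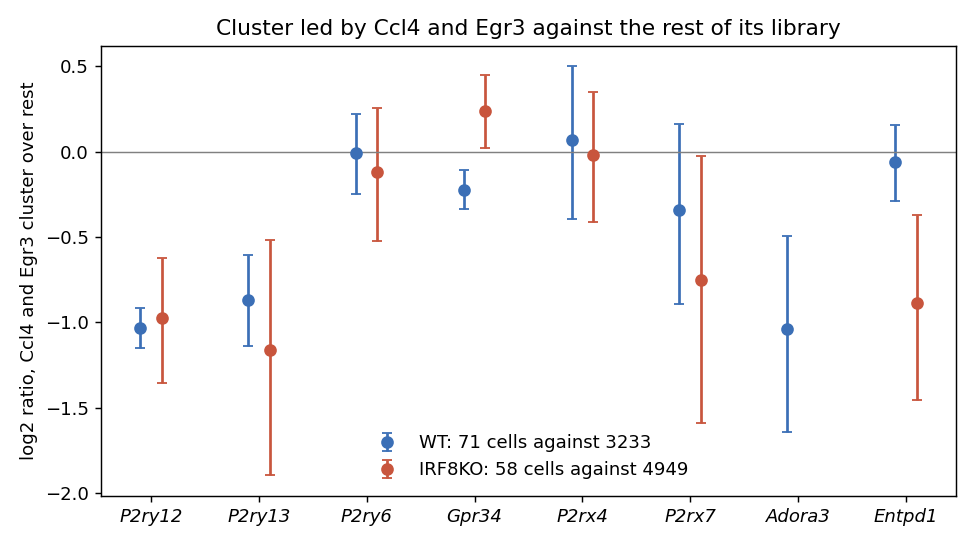
log2 ratio of each gene's level in the cluster led by Ccl4 and Egr3 over the remaining cells of the same library, with exact intervals, for WT (blue, 71 cells) and the library labelled IRF8KO (red, 58 cells). P2ry12 lies near -1 in both (-1.03 and -0.98), Gpr34 near 0 (-0.22 and 0.24), and Adora3 has no red point because those cells held 0 UMIs.

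The genes whose levels followed each of the 8 most closely over the 6 clusters were then listed, by Pearson's correlation of log2(CPM + 10). The clusters share 2 libraries, so each value mostly repeats the difference between them, and no p is given. Timp2 (0.999), Ecscr (0.998) and Gabbr1 (0.998) were most like P2ry12, and Fam49b, Pld1 and Timp2 (all 0.999) most like P2ry13. Adora3 was followed by Upk1b, Il7r and Nav2, all at 0.999 or closer to 1, where Upk1b had 64.9 and 0.0527 CPM. Gpr34 was followed by Tmed3 and Serinc1 (0.998 and 0.997), among others, P2ry6 by Brd1, Srrt and Txndc11 (0.998, 0.997 and 0.997) and Entpd1 by Man1c1, Spcs3 and Npc1 (all 0.999). P2rx4 was followed by Ms4a6b, Mink1 and Hacd4 (0.990, 0.989 and 0.984), all higher in the library labelled IRF8KO, and P2rx7 by Metap1d, Ranbp2 and Atxn7 (0.977, 0.975 and 0.966).

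Other cells that carry these receptors were looked for by their markers. Of 5 platelet markers, Itga2b had 2 UMIs in each library and Gp1ba 1 and 0, Gp9 had 859 and 262, Treml1 50 and 13, and Ppbp, in the other direction, 0 and 73. The list summed to 49.2 and 18.4 CPM. The 7 lymphocyte markers summed to 0.0539 and 0.158 CPM, the 3 neuron markers to 2.27 and 2.11 CPM, the 3 astrocyte markers to 2.27 and 2.63 CPM, the 4 oligodendrocyte markers to 71.2 and 58.0 CPM, the 4 endothelial markers to 53.4 and 22.9 CPM, the 4 red cell markers to 2.32 and 0 CPM, and the 5 monocyte markers to 7.33 and 17.5 CPM. The endothelial sum joins opposite changes: Pecam1 was at 52.0 and 3.64 CPM and Cdh5 had 16 and 0 UMIs. Flt1, in the other direction, was at 0.485 and 19.2 CPM, and Cldn5 had 0 UMIs in both libraries. The 10 neutrophil markers summed to 2.48 and 54.5 CPM in the cells that stayed. The part of such cells in the levels of the 8 genes was not tested.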

How the data were processed

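Flow-sorted microglia of 2 pools were measured on the 10x Genomics platform per the labels' protocols, which also name a full-length low-input kit, although the matrices are droplet UMI tables. The authors deposited whole-number UMI counts per gene and barcode, made with Cell Ranger 3.1 on mm10 per the submitters' processing notes. How cells were called, and on which annotation, is not given in the sources used here, and the lowest deposited barcode held 500 UMIs. Groups came from sample titles. UMIs were summed over the analysed cells and divided by the library total to give CPM. Intervals are exact Poisson (CPM), conditional binomial (log2 ratio) and Clopper-Pearson (shares), each 95%. Doublets were not called, and an alternative left out the top 5% of cells by UMIs. Clusters came from scanpy 1.11.5 (2000 variable genes, 30 components, 15 neighbours, Leiden resolution 0.5 or 1.0), and TMM factors from edgeR 4.0.16. Gene positions came from GENCODE M21 on GRCm38, matched by identifier for all 8 genes. The genes, lists and tests were chosen with earlier results of these data known. Named are the 8 genes, the 3 largest differences with at least 10 CPM of each pathway list, locus neighbours, Irf8, listed markers, and the 3 genes with at least 50 CPM most like each of the 8; Nlrp3, P2ry14, Nt5e, Gpr171 and the cluster leaders were added after their values were seen. A few genes that this rule names are not reported here. The ratio and thinning code was tested on simulated data. No mapped column of another sample was present.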

Additional observations from a re-analysis of the deposited data

How the results depend on the processing

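Alternatives were fixed together with the design, except leaving out the barcodes found in both libraries, which was chosen after seeing the data. Moved means outside the reported value's own counting interval. The counts of genes at least 2-fold lower (4) and higher (1) stayed within 1.5 times under the 12 alternatives, with 5 lower when neutrophil-rich cells were included and 6 lower at 1.5-fold. The P2ry12 log2 ratio moved to -2.31 and the summed log2 ratio (-1.59 as reported) to -1.34 under TMM scaling, to -2.42 and -1.44 when mitochondrial and ribosomal protein genes left the totals, to -2.49 and -1.52 with totals without the 10 most abundant genes, to -2.48 and -1.56 when cells were weighted equally, to -2.62 and -1.65 with neutrophil-rich cells included, and to -2.52 and -1.56 under the stricter filter. The scalings shift every gene by a common factor; for the others the cause was not tested. None of the 8 ratios changed sign, and of 77 values of the other 7 genes 54 stayed and 23 moved. A neutrophil limit of 0.5% left every ratio and both gene counts exactly as reported, so its values among those that stayed are no check. The share of IRF8KO-labelled cells below the WT 5th percentile and the share with a P2ry12 UMI were 52.0% and 43.7% at 1000 UMIs per cell, 97.1% and 80.2% at 4000, and 87.2% and 77.7% without thinning, so both rest on the depth chosen. The cells differed too, with 5007 at 1000 UMIs and 1156 at 4000. Without thinning, the 87.2% compares each cell's fraction of UMIs in the 8 genes and not the UMI sum. The share below the WT percentile was 28.1% without P2ry12 and 86.6% at the 10th percentile. The share with a P2ry12 UMI was 62.9% with neutrophil-rich cells. The ratio of the highest to the lowest P2ry12 level among clusters of the library labelled IRF8KO was 1.82 and became 2.84 at resolution 1.0, which sets the Ccl4 and Egr3 cells apart. No paired analysis was possible because each group is 1 library, and there was no replicate to leave out. Depth limits Adora3 in the library labelled IRF8KO (35 UMIs) and P2ry14 and Nt5e in WT (3 and 2 UMIs).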

Other observations

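In the library labelled IRF8KO, mean P2ry12 was higher in the cells with fewest border macrophage transcripts. After thinning, the 100 cells with 0 UMIs of the 11 border macrophage markers had a mean of 2.01 P2ry12 UMIs, the 187 with 1 had 1.56, the 339 with 2 had 1.36, the 422 with 3 had 1.40, and the 1694 with 8 or more had 1.14. The mean of WT cells was 7.31, so even the cells with 0 such UMIs stayed well below it. Gpr34 went from 1.95 to 1.59 UMIs over the same cells, while P2rx4 was 0.58 at both ends and Entpd1 0.550 and 0.557. Over all 4509 cells the rho of P2ry12 with the border macrophage sum was -0.09, which is weak.

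A few cells lay in clusters made up of the other library. Of the IRF8KO-labelled cells, 2 lay in WT clusters. The deeper of the 2, with 4924 UMIs, held 21 P2ry12, 7 Gpr34, 2 Adora3 and 4 Sall1 UMIs with 4 Apoe and 0 Ms4a7 UMIs, and its barcode did not occur in the WT library; the other, with 1035 UMIs and 20 Apoe UMIs, had a barcode found in both. Of the WT cells, 6 lay in clusters of the library labelled IRF8KO, with 0 to 8 P2ry12 UMIs each and 0 Ms4a7 UMIs.

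With cells split into 4 groups of about equal number by total UMIs, P2ry12 in the library labelled IRF8KO was at 830 CPM in the shallowest cells, then 669 and 589 CPM, and at 568 CPM in the deepest. Over the WT groups it ran from 3657 to 3726 CPM. In the library labelled IRF8KO the highest group was 1.45-fold the lowest for Gpr34, 1.42-fold for P2ry6 and 1.40-fold for P2ry13, against 1.46-fold for P2ry12. It was 1.23-fold for P2rx4, 1.24-fold for P2rx7, 1.12-fold for Entpd1 and, from 35 UMIs, 2.78-fold for Adora3. Over the 8 genes the WT ratio lay between 1.02 (P2ry12) and 1.28 (P2rx4). WT Gpr34 went from 2494 CPM in the shallowest cells to 2064 CPM in the deepest. The part of depth in these ranges was not tested.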
